A study of Mus musculus with 6 samples.

Results

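The results below concern the part of the 48 h response to auxin that differed between a pair of neural progenitor subclones. It was measured as a difference of differences over all 6 of the 6 libraries of the study. For each gene the late change in a subclone is the log2 level at 48 h minus the mean log2 level of the untreated and 24 h libraries of that subclone. The interaction is the late change in clone 31 minus the late change in clone 30. A value above 0 therefore means a higher 48 h response in clone 31. Of 53801 genes in the files, 16757 had enough counts to be tested.

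The cells were mouse neural progenitor cells (NPCs) of the hybrid strain BL/6J x CAST-EiJ, made in culture from embryonic stem cells and then subcloned. All of them, the untreated ones included, carried a degron fused to SPEN, which makes the protein unstable once auxin, a plant hormone, is added. Auxin was given at 500 uM for 0, 24 or 48 h to the subclones titled CL30 and CL31, called clone 30 and clone 31 here, with EGF and FGF in the medium throughout. There was 1 library per clone and time, and no line without the degron was among the libraries. A clone-dependent response at 48 h therefore cannot be told apart from a deviation of the single 48 h library of either clone. The p-values rest on 2 residual degrees of freedom, which come from the untreated and 24 h libraries of each clone, and nothing in the labels says whether the times were separate cultures.

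SPEN represses transcription. It is brought by Xist RNA to the X chromosome being silenced, and is also a corepressor at targets of RBPJ, the DNA-binding factor of Notch signalling. NPCs kept in EGF and FGF divide through signalling by the kinase ERK, whose targets include Myc and a set of feedback inhibitors (Spry and Dusp genes). NPCs can differentiate into neurons and glia when EGF and FGF are withdrawn. MYC drives ribosome biogenesis, and the oxygen-regulated factor HIF drives glycolysis genes.

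Total counts per library ran from 24603816 to 43008978, and the 48 h libraries held 29668494 (clone 30) and 27628297 (clone 31). Levels are given as CPM (counts scaled to a common library size) after TMM scaling. They are not divided by gene length and are compared only within a gene. The progenitor markers Sox2, Nes, Vim and Fabp7 were at 192 CPM or more in every library. The endoderm marker Gata4 was at 0 counts in 5 of the 6 libraries with 1 count in the other, and Sox17 and Pou5f1 were at 0 in every library, which allows up to 3 counts or 0.122 CPM in the smallest (counting error only). The mesenchymal marker Col3a1 lay between 24.9 and 35.7 CPM in the 3 clone 31 libraries and between 0.933 and 1.28 CPM in the 3 clone 30 libraries, so the clones already differed before auxin. Spen mRNA was at 92.4, 173 and 199 CPM at 0, 24 and 48 h in clone 30 and at 116, 219 and 258 CPM in clone 31. Depletion takes place at the protein level and is not checked by mRNA, whose interaction of 0.05 ± 0.71 (SE) was not called (edgeR adjusted p = 0.986).

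The late response was wider in clone 31. With edgeR's quasi-likelihood test at a Benjamini-Hochberg adjusted p under 0.05, 5287 genes (31.6%) had a late change in clone 31, 2634 up (15.7%) and 2653 down (15.8%). In clone 30 the same test called 1411 genes (8.42%), 671 up (4%) and 740 down (4.42%). Leaving out the untreated library of clone 30 moved its count to 3630, and leaving out the untreated or 24 h library of clone 31 moved the counts to 778 and 783 in clone 30 and to 2966 and 2764 in clone 31. The median standard error was 0.17 in both clones (log2). The fit pools the spread of each gene over the clones, so this cannot show that both were measured with equal precision. The standard deviation of the late change over the 11093 genes of at least 5 CPM was 0.65 in clone 31 and 0.41 in clone 30. The clones moved mostly in one direction: of the 1411 genes called in clone 30, 1378 had the same sign in clone 31, and 972 of these were larger there. Genes called in both clones with the same sign numbered 1215, which is 86.1% of the clone 30 calls and 23.0% of the clone 31 calls, and 5 genes were called in both with opposite signs. Across the 11093 genes the late changes of the clones, which share no library, correlated at a Pearson r of 0.81 (a description across genes, which are not independent).

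For the interaction itself edgeR called 0 of 16757 genes (0%), with a smallest adjusted p of 0.157, while 2196 genes (13.1%) had an unadjusted p under 0.05. DESeq2 on the same design called 228 of the 11884 genes to which it gave an adjusted p (1.92%), 139 above 0 and 89 below, and limma voom called 0 (2079 at an unadjusted p under 0.05). The edgeR count depends on the clone 30 baseline: it was 266 without the untreated library of clone 30, 1378 without its 24 h library, and 0 without the untreated or the 24 h library of clone 31. The genes described next are those of unadjusted edgeR p under 0.01, which are not calls: 598 genes (3.57%), 291 above 0 (1.74%) and 307 below (1.83%). DESeq2's 228 calls include 207 of them. The late change was larger in size in clone 31 for 519 of the 598. Over all genes tested its median size was 0.42 in clone 31 and 0.29 in clone 30.

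By the calls within each clone, 420 of the 598 genes were called in one clone only or in opposite directions. Clone 31 alone accounted for 219 that rose and 156 that fell. Clone 30 alone accounted for 31 that rose and 9 that fell. In 4 genes clone 31 rose and clone 30 fell, and in 1 gene clone 30 rose and clone 31 fell. The remainder changed in both clones by unequal amounts (90 down, 40 up) or passed the test in neither (48 genes). Among all genes tested, whatever their interaction, 31.6% were called in clone 31 and 8.42% in clone 30, with 1215 called in both with the same sign. Picking genes by their interaction favours the classes of one clone only or opposite directions, and not called is not the same as unchanged.

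**Figure D1:**
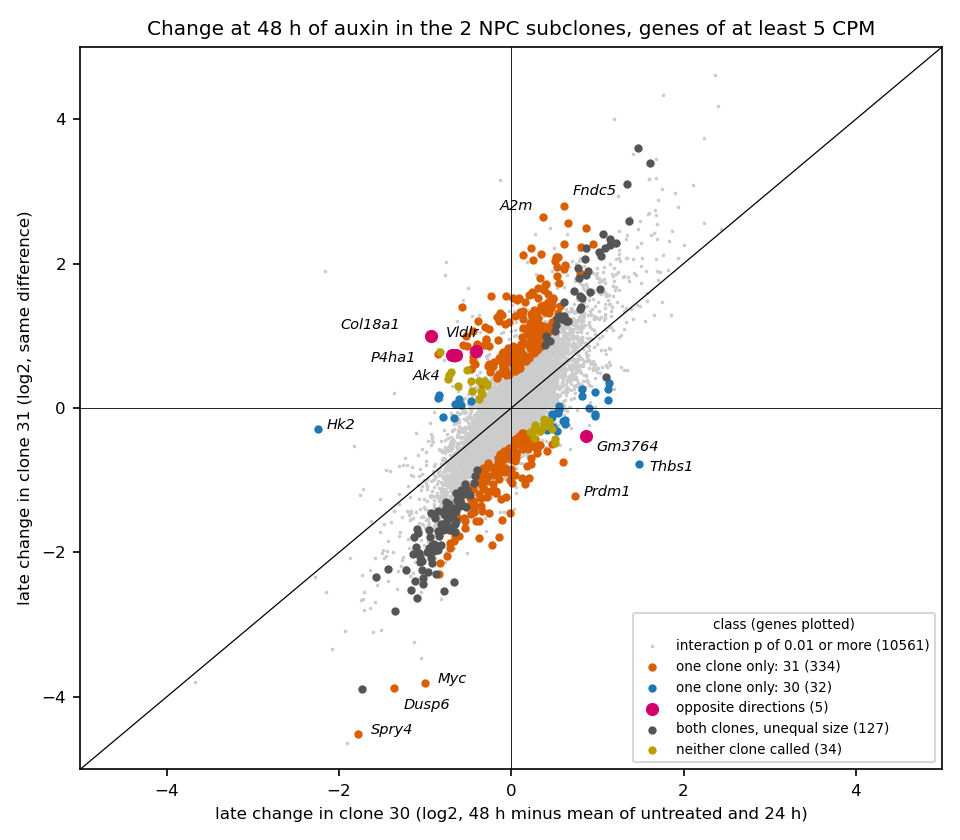
Late change in clone 30 (horizontal, log2) against late change in clone 31 (vertical, log2), 1 point per gene of at least 5 CPM on average. Coloured points are genes of unadjusted interaction p under 0.01 by class, and the diagonal marks equal change: most coloured points lie farther from 0 on the clone 31 axis, and 5 genes sit in opposite quadrants with both clones called.

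The 5 genes of opposite direction were Ak4, P4ha1, Vldlr, Col18a1 and Gm3764. Ak4, a mitochondrial adenylate kinase known as a hypoxia-induced gene, was at 103, 91.6 and 62.3 CPM at 0, 24 and 48 h in clone 30. In clone 31 it was at 108, 106 and 178 CPM. The untreated and 24 h libraries of both clones lay close together, and the 48 h library was the lowest of the 6 in clone 30 and the highest of the 6 in clone 31. Ak4 fell by 0.65 in clone 30 (log2, edgeR adjusted p = 0.0279) and rose by 0.73 in clone 31 (0.00377). Its interaction was 1.38 ± 0.15 (SE), 2.6-fold, with an adjusted p of 0.157 by edgeR and 3.84e-07 by DESeq2.

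P4ha1, a prolyl hydroxylase subunit needed for collagen folding, was at 162, 132 and 91.6 CPM in clone 30 and at 173, 158 and 277 CPM in clone 31. As for Ak4, the 48 h library was the lowest of the 6 in clone 30 and the highest of the 6 in clone 31. It fell by 0.69 in clone 30 and rose by 0.74 in clone 31, an interaction of 1.42 ± 0.20 (SE; adjusted p = 0.229 by edgeR, 2.88e-06 by DESeq2). Vldlr, a lipoprotein receptor that also binds reelin, was at 82.4, 84.1 and 62.6 CPM in clone 30 and at 103, 103 and 177 CPM in clone 31. Its baselines within each clone were nearly equal, and its interaction of 1.20 ± 0.13 had the smallest unadjusted p of all genes, 3.93e-05 by edgeR. Col18a1, a basement membrane collagen, began from very different levels: 122, 154 and 72.2 CPM in clone 30 against 14.3, 10.8 and 25.0 CPM in clone 31. It fell by 0.94 in clone 30 and rose by 0.99 in clone 31, yet all 3 clone 30 libraries stayed above all 3 clone 31 libraries.

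Gm3764 went the other way. This long noncoding RNA gene (GRCm38, chr3:88206813-88229959, plus strand) holds the hairpin of Mir9-1, 1 of 3 loci that make the neural microRNA miR-9. It is shown because it was the one of the 598 genes that rose in clone 30 and fell in clone 31. Gm3764 was at 254, 256 and 467 CPM in clone 30 and at 202, 228 and 164 CPM in clone 31. The 48 h library was the highest of all in clone 30 and the lowest of all in clone 31. The rise of 0.87 (edgeR adjusted p = 0.0215) and the fall of 0.39 (0.0367) gave an interaction of -1.26 ± 0.15 (SE; adjusted p = 0.157 by edgeR, 3.84e-07 by DESeq2). The host genes of the other miR-9 loci rose in both clones. Mir9-3hg (chromosome 7) was at 6.26, 4.15 and 17.5 CPM in clone 30 and at 5.51, 6.65 and 26.4 CPM in clone 31, with late changes of 1.77 and 2.12. C130071C03Rik (chromosome 13), which holds Mir9-2, was at 72.2, 80.4 and 152 CPM in clone 30 and at 60.5, 82.1 and 132 CPM in clone 31, with late changes of 1.0 and 0.89. The Mir9-3 hairpin, counted as a gene of its own, was at 0.0401, 0.0250 and 0.547 CPM in clone 30 and at 0.225, 0.0954 and 0.150 CPM in clone 31. These are 1, 1 and 17 counts in clone 30 and 9, 4 and 4 counts in clone 31. Its late changes were 3.99 in clone 30 and -0.08 in clone 31, and its interaction of -4.07 ± 1.20 (SE) was not called (edgeR adjusted p = 0.286). The Mir9-1 hairpin, counted the same way, was at 0.441, 0.450 and 1.13 CPM in clone 30 and at 0.225, 0.405 and 0.301 CPM in clone 31. Its late changes were 1.33 and -0.07, and its interaction was not called (edgeR adjusted p = 0.452). The mature products of the 3 loci are the same in RefSeq (GRCm38.p6) and are given here 5′ to 3′ with the seed, bases 2 to 8, in capitals. Mature microRNA levels were not analysed here.
miR-9-5p: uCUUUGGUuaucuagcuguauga
miR-9-3p: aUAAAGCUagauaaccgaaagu

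**Figure D2:**
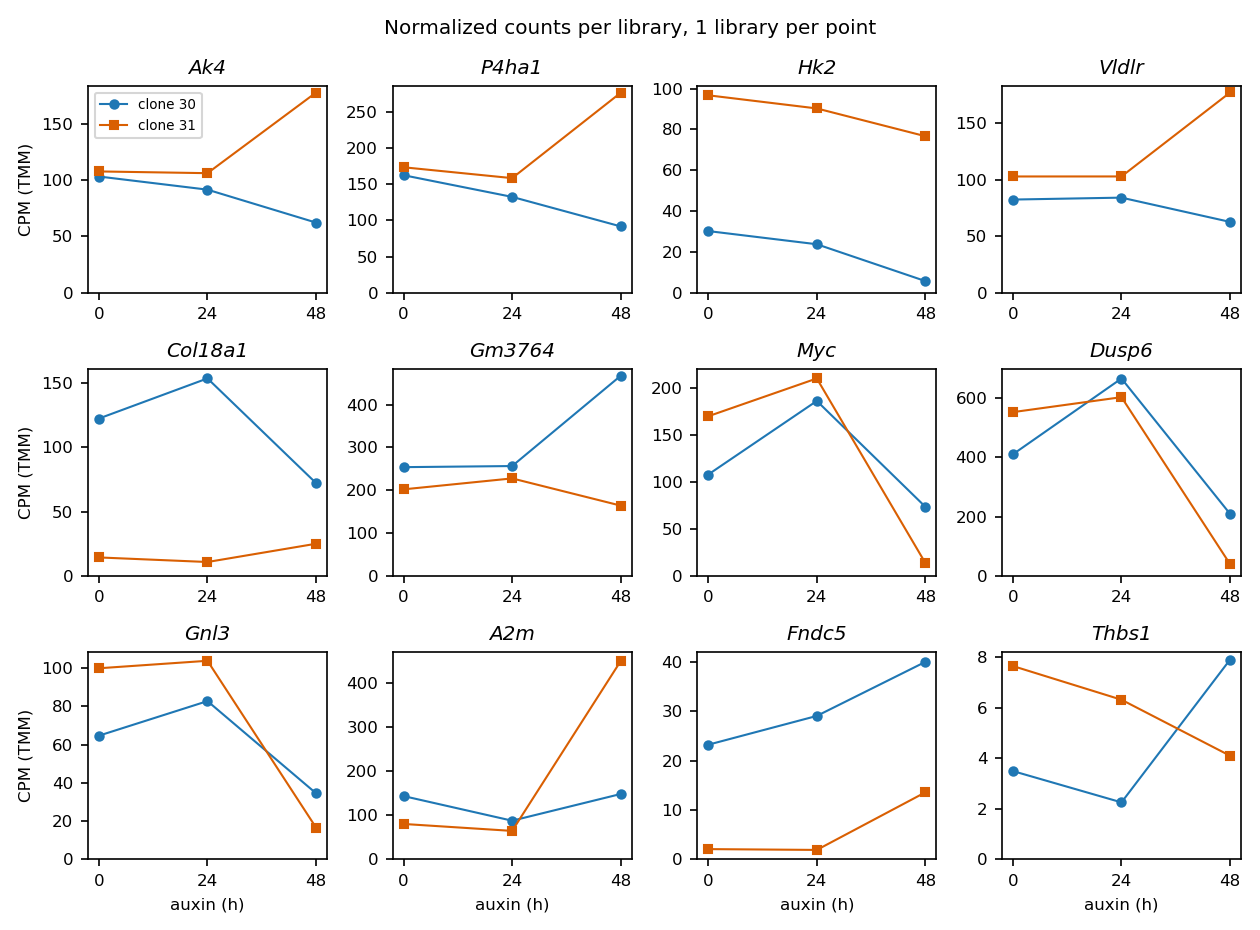
CPM after TMM scaling (vertical, linear from 0) against hours of auxin (horizontal) for 12 genes, 1 library per point, circles for clone 30 and squares for clone 31. Ak4, P4ha1 and Vldlr part at 48 h (62.3 against 178 CPM for Ak4), Gm3764 parts in the reverse order, and Myc and Dusp6 drop furthest in clone 31.

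The hypoxia and glycolysis genes, most of them known targets of the oxygen-regulated factor HIF, parted between the clones as a list. Of 18 tested, 15 had a late change below 0 in clone 30 and above 0 in clone 31. The median late change was -0.66 in clone 30 and 0.79 in clone 31, and the median interaction was 1.62, against 0.00 over all genes tested. Within clone 30, 0 rose (4% of all genes did) and 4 fell (4.42% of all genes did), namely Hk2, P4ha1, Pfkfb3 and Adm. Within clone 31, 9 rose (15.7% of all genes did) and 1 fell, Pfkfb3 (15.8% of all genes did). Interactions of unadjusted p under 0.01 were found in 4 of 18 (22.2%, against 3.57% of all genes), all above 0, and DESeq2 called 6, also all above 0.

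Hk2, the hexokinase that commits glucose to glycolysis, was at 30.2, 23.7 and 5.66 CPM in clone 30 and at 96.7, 90.3 and 76.7 CPM in clone 31. It fell by 2.24 in clone 30, 4.74-fold, while its late change of -0.29 in clone 31 did not pass the test (edgeR adjusted p = 0.193). Its interaction was 1.96 ± 0.24 (SE; adjusted p = 0.157 by edgeR, 3.00e-07 by DESeq2). Ldha, which turns pyruvate into lactate, was at 978, 697 and 466 CPM in clone 30 and at 1082, 1040.3 and 1780.0 CPM in clone 31. Aldoa, a glycolytic aldolase, was at 984, 741 and 656 CPM in clone 30 and at 1007, 976 and 1836 CPM in clone 31. For both, all clone 30 libraries at 24 and 48 h lay below all clone 31 libraries.

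Part of the separation was already there at 24 h. In clone 30 the median difference between 24 h and untreated was -0.66 over the list, and that between 48 h and 24 h was -0.28. In clone 31 these were -0.14 and 0.88. Vegfa, the blood vessel growth factor, was at 134, 71.0 and 74.5 CPM in clone 30 and at 168, 148 and 384 CPM in clone 31. Bnip3, a mitophagy receptor, was at 96.5, 37.3 and 38.9 CPM against 80.7, 63.6 and 259 CPM. Pdk1, a kinase that restrains pyruvate entry into mitochondria, was at 78.5, 24.0 and 30.1 CPM against 84.2, 56.2 and 285 CPM. In these 3 genes clone 30 was near its 24 h level at 48 h, and the wide gap between its baseline libraries enlarged the error: the interaction of Pdk1 was 2.78 ± 0.99 (SE, edgeR adjusted p = 0.360). Set against the 24 h libraries alone the list's median interaction was 1.32, and against the untreated libraries alone it was 1.79. Pfkfb3 (interaction -0.31) and Adm (-0.31) did not follow the others.

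The 4 list members of interaction p under 0.01 are shown with the 250 bases upstream of their RefSeq start (GRCm38.p6), as a look at the core of the HIF response element. Capitals mark ACGTG or its reverse complement CACGT, searched on both strands. Of the 16 list members with a promoter in RefSeq's table, 9 (56.2%) hold ACGTG in this window, against 2457 of 11528 tested genes with a promoter (21.3%). The E-box CACGTG, which contains ACGTG, was in 2 of 16 (12.5%) and in 8.12% of all. A match is a run of letters and does not show binding. Most list members are known HIF targets, so a larger share could come from the choice of list alone. It is not a result of these libraries. The start used for Ldha lies 4329 bases and that for Aldoa 304 bases inside the gene as the files give it. Hk2 lies at chr6:82774455-82774704 (minus strand), P4ha1 at chr10:59323046-59323295 (plus), Ldha at chr7:46845554-46845803 (plus) and Aldoa at chr7:126800448-126800697 (minus), each written in the direction of its gene. Hk2 holds 2 matches, P4ha1 holds 1, and Aldoa holds 0. Ldha holds 5, because each of its CACGTG runs counts on both strands.
Hk2 promoter: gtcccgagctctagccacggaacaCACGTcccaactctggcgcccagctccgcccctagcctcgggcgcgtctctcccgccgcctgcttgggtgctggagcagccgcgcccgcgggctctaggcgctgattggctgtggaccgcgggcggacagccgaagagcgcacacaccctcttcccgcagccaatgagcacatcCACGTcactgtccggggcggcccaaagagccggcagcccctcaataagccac
P4ha1 promoter: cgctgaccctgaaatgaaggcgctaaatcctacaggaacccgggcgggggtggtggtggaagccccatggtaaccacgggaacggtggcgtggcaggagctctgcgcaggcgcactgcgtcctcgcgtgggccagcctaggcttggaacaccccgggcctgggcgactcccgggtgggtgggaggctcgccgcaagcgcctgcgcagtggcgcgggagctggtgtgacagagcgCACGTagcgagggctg
Ldha promoter: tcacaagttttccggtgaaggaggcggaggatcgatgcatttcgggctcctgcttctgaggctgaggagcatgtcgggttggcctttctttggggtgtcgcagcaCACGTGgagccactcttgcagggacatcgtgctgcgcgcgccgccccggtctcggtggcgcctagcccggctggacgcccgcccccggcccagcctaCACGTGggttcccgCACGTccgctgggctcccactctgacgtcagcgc
Aldoa promoter: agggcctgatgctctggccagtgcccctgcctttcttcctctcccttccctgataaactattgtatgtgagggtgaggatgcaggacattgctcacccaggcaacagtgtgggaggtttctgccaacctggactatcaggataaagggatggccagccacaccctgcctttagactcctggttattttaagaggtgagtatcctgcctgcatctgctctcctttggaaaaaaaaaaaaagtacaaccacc

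**Figure D3:**
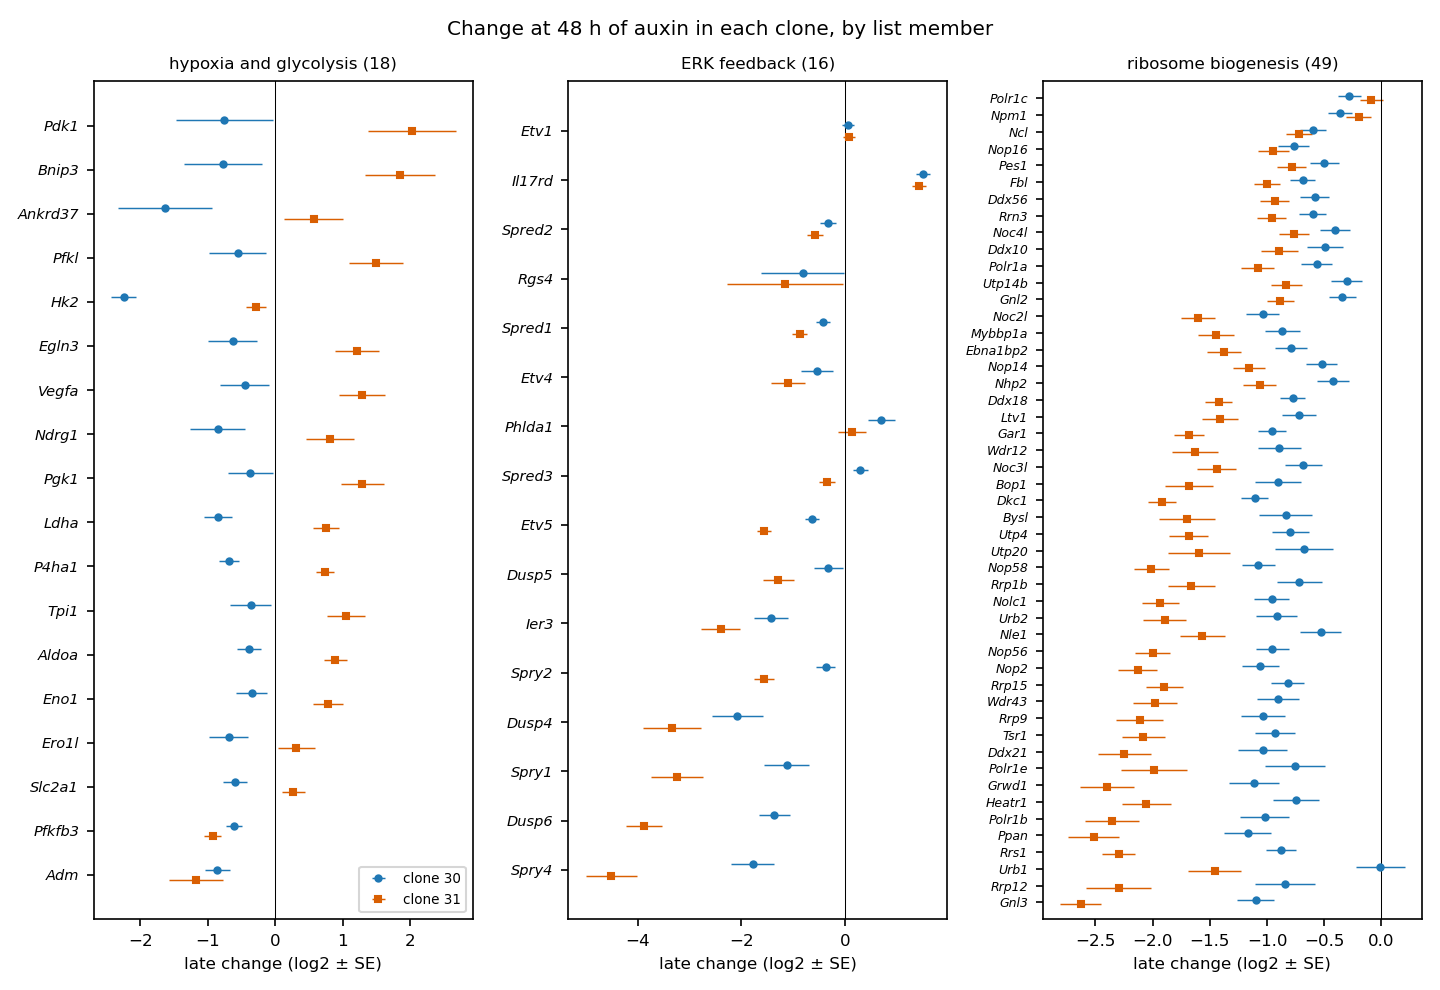
Late change (log2) with its standard error for each tested member of 3 gene lists, circles for clone 30 and squares for clone 31, ordered by interaction. In the hypoxia and glycolysis list 15 of 18 members lie left of 0 in clone 30 and right of 0 in clone 31, and in the ribosome biogenesis list 47 of 49 lie farther left in clone 31.

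The genes that fell in clone 31 only were led by targets of growth factor signalling. Myc, the growth-promoting transcription factor, was at 108, 186 and 73.3 CPM in clone 30 and at 169, 209.6 and 13.5 CPM in clone 31. It fell by 3.81 in clone 31, 14-fold (edgeR adjusted p = 0.00336), and its late change of -1.0 in clone 30 did not pass the test (0.131). The interaction of Myc was -2.80 ± 0.49 (SE; adjusted p = 0.238 by edgeR, 0.00954 by DESeq2). Spry4, an inhibitor of FGF receptor signalling, was at 158, 309 and 68.0 CPM in clone 30 and at 385, 379 and 16.7 CPM in clone 31. Dusp6, the phosphatase that inactivates ERK, was at 409, 665 and 209 CPM in clone 30 and at 552, 602 and 39.4 CPM in clone 31. For Myc, Spry4 and Dusp6 the 48 h library was the lowest within each clone, and the clone 31 library was the lowest of all 6. Dusp6 fell by 3.87 in clone 31, and its -1.36 in clone 30 narrowly missed the threshold (edgeR adjusted p = 0.0536), so "clone 31 only" rests on that threshold for it and for Spry4 (-1.78, 0.0620).

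Of the 16 tested ERK feedback genes, 15 had an interaction below 0, with a median of -0.79. The median late change was -0.49 in clone 30 and -1.22 in clone 31. Within clone 30, 1 rose and 2 fell (4% and 4.42% of all genes did), and within clone 31, 1 rose and 10 fell (15.7% and 15.8% of all genes did). Interactions of unadjusted p under 0.01 were all below 0 and numbered 4 (25%, against 3.57% of all genes): Dusp6, Spry4, Spry2 and Etv5, the last an ETS transcription factor induced by FGF. Etv5 fell in both clones, from 727 and 709 to 461 CPM in clone 30 and from 840.4 and 707 to 261 CPM in clone 31. Il17rd, another FGF antagonist, rose in both clones by similar amounts (1.49 and 1.42), and Etv1 was flat (0.06 and 0.07). The clones also differed at 24 h: the list's median difference between 24 h and untreated was 0.50 in clone 30 and 0.04 in clone 31.

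**Figure D4:**
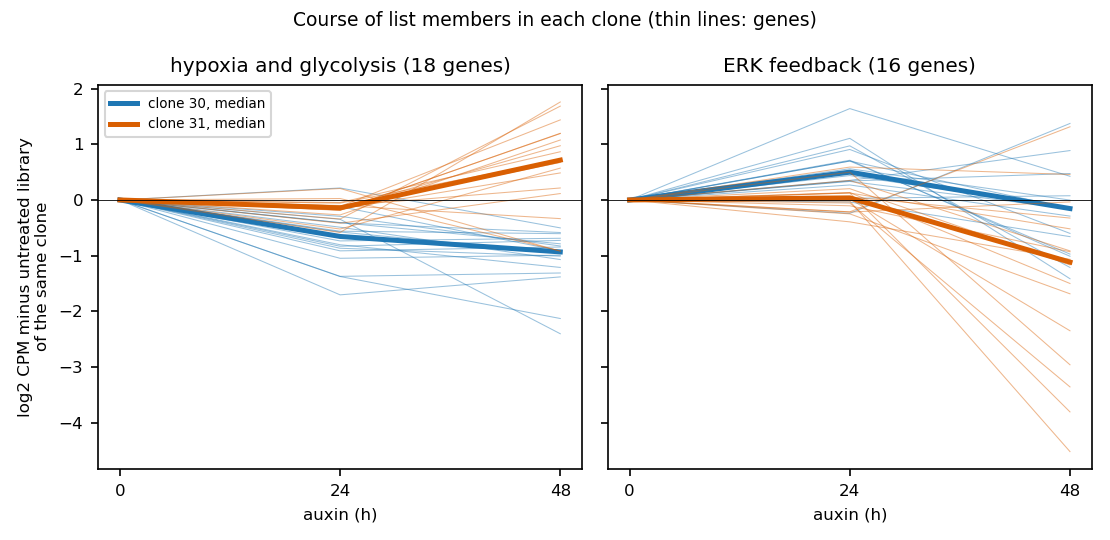
Log2 CPM minus that of the untreated library of the same clone (vertical) against hours of auxin (horizontal) for 2 gene lists, thin lines for genes and thick lines for the median of each clone. The hypoxia and glycolysis median of clone 30 is already 0.66 below 0 at 24 h while that of clone 31 rises only at 48 h, and the ERK feedback median of clone 30 is 0.50 above 0 at 24 h.

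Immediate early genes, the first to respond to growth factors, did not move as a block. Within clone 30, 2 of 16 tested rose and 1 fell (4% and 4.42% of all genes did). Within clone 31, 3 rose and 6 fell (15.7% and 15.8% of all genes did). Of the 16, 13 had an interaction below 0 (median -0.94). An unadjusted interaction p under 0.01 was reached by 37.5% (3.57% of all genes), 4 below 0 and 2 above 0. Those above 0 were Klf4, at 8.39, 9.92 and 9.78 CPM in clone 30 and at 9.71, 8.63 and 26.3 CPM in clone 31, and Fos, at 16.5, 19.5 and 17.8 CPM against 3.75, 5.06 and 10.0 CPM. Both rose in clone 31 (1.52 and 1.19) and stayed near their baseline in clone 30 (0.09 and -0.02). Nr4a1, a nuclear receptor of this class, rose in clone 30 only (0.88), from 6.18 and 6.55 to 11.7 CPM, and was at 9.16, 9.83 and 7.22 CPM in clone 31.

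Among the other genes that fell in clone 31 only, Prdm1, a transcriptional repressor, was at 6.30, 6.62 and 10.8 CPM in clone 30 and at 9.76, 11.8 and 4.62 CPM in clone 31. Its fall of 1.22 in clone 31 and its late change of 0.74 in clone 30 (edgeR adjusted p = 0.0582) had opposite signs, with an interaction of -1.97 ± 0.28 (SE). Rasl11a, a small GTPase of the Ras family, was at 4.49, 6.22 and 4.63 CPM in clone 30 and at 8.18, 8.63 and 2.26 CPM in clone 31. Olig2, a transcription factor of the oligodendrocyte lineage that NPCs of this kind express, fell by 0.64 in clone 31 only, from 695 and 735 to 459 CPM, against 603, 658 and 616 CPM in clone 30.

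Ribosome biogenesis genes, whose list was drawn up after its values were seen, are given as a description. Of 49 tested, 47 had an interaction below 0, with a median late change of -0.79 in clone 30 and -1.63 in clone 31. In clone 30, 31 fell (4.42% of all genes did), in clone 31, 47 fell (15.8% of all genes did), and 0 rose in either. Unadjusted interaction p under 0.01 was reached by 23 (46.9%, against 3.57% of all genes), all below 0. Gnl3 (nucleostemin), a nucleolar GTPase, was at 64.7, 82.8 and 34.5 CPM in clone 30 and at 99.98, 104 and 16.5 CPM in clone 31. Rrs1, an assembly factor of the large subunit, was at 77.3, 92 and 46.1 CPM in clone 30 and at 133, 129 and 26.7 CPM in clone 31. For both, the 48 h library was the lowest of its clone, and that of clone 31 was the lowest of all even though its baseline was the higher. Urb1 stood apart, with a late change of -0.01 in clone 30 and -1.46 in clone 31. Npm1 (-0.36 and -0.20) and Polr1c (-0.28 and -0.09) were the 2 members with an interaction above 0.

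The genes that rose in clone 31 only were led by A2m, the secreted protease inhibitor alpha-2-macroglobulin. A2m was at 143, 87.1 and 148 CPM in clone 30 and at 79.8, 64.0 and 449.9 CPM in clone 31. It rose by 2.65 in clone 31 (edgeR adjusted p = 0.00344), and clone 30 at 48 h was close to its own untreated level. Fndc5, the precursor of irisin, was at 23.2, 29.1 and 40.1 CPM in clone 30 and at 2.03, 1.86 and 13.6 CPM in clone 31. Fndc5 was also highest at 48 h within clone 30 (late change 0.61, edgeR adjusted p = 0.0642), so its place in this class rests on the threshold. Its interaction was 2.19 ± 0.26 (SE; adjusted p = 0.157 by edgeR, 3.03e-06 by DESeq2), yet clone 31 at 48 h remained below every clone 30 library. Ccdc3 had the same form, at 12.4, 12.6 and 13.8 CPM in clone 30 and at 1.68, 1.6 and 7.14 CPM in clone 31. The imprinted noncoding RNA H19 was at 10.3, 5.55 and 9.17 CPM in clone 30 and at 4.58, 3.51 and 18.9 CPM in clone 31. Fam162a, a hypoxia-responsive mitochondrial protein, was at 157, 88.1 and 82.1 CPM in clone 30 and at 144, 127 and 357 CPM in clone 31.

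Fixed lists held further genes of this class. Ddit4, a stress-induced inhibitor of mTORC1, was at 312, 245 and 255 CPM in clone 30 and at 237, 254 and 609 CPM in clone 31, an interaction of 1.44 ± 0.22 (SE; adjusted p = 0.236 by edgeR, 2.93e-06 by DESeq2). Btg2, an antiproliferative p53 target, was at 310.3, 295 and 377 CPM in clone 30 and at 101, 131 and 368 CPM in clone 31, so that the clones met at 48 h. Nrp2, a semaphorin coreceptor, was at 29.7, 21.0 and 36.0 CPM in clone 30 and at 58.5, 52.7 and 238 CPM in clone 31. Atf4, the transcription factor of the amino acid response, fell in both clones and further in clone 31: 131, 148 and 87.4 CPM against 211, 204 and 75.3 CPM. The amino acid and ER stress list as a whole was mixed, with 7 of 20 interactions above 0 and 13 below.

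Of the 40 genes called in clone 30 alone, 9 fell. Besides Hk2, those that fell only there included Nampt, the rate-limiting enzyme of NAD salvage, at 70.1, 62.2 and 36.7 CPM in clone 30 and at 112, 104 and 119 CPM in clone 31. Nampt fell by 0.85, an interaction of 0.99 ± 0.16 (SE; adjusted p = 0.236 by edgeR, 0.00311 by DESeq2). Sirpa, the receptor for CD47, was at 243, 248 and 161 CPM in clone 30 and at 159, 140.4 and 163 CPM in clone 31. Mn1, a transcriptional coregulator, was at 12.7, 12.2 and 6.95 CPM against 10.5, 9.87 and 11.5 CPM, and Pvr, an adhesion receptor of the nectin family, was at 30.6, 35 and 20.9 CPM against 33.3, 37.3 and 36.8 CPM. In each of these 4 the 48 h library of clone 30 was the lowest of its clone, and clone 31 showed no call.

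Among those that rose in clone 30 only, Thbs1 (thrombospondin), a matrix protein, was at 3.49, 2.25 and 7.91 CPM in clone 30 and at 7.66, 6.32 and 4.10 CPM in clone 31. Its late change was 1.49 in clone 30 and -0.77 in clone 31 (edgeR adjusted p = 0.0971), an interaction of -2.26 ± 0.42 (SE; adjusted p = 0.236 by edgeR, 0.0150 by DESeq2). Card10, a scaffold of NF-kB signalling, rose from 7.63 and 8.45 to 17.6 CPM in clone 30, which brought it to the 16.2, 15.3 and 17.1 CPM of clone 31. Mical1, an actin-oxidising enzyme, likewise rose from 14.7 and 18.4 to 32.7 CPM, against 28.1, 34.3 and 29.6 CPM in clone 31. Spaca6, a sperm protein gene, rose from 13.0 and 15.6 to 28.1 CPM, against 17.6, 16.5 and 15.8 CPM.

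Genes that changed in both clones by unequal amounts included Pou3f1 and Hmga2. Pou3f1, a POU factor of early neural cells, was at 76.4, 115 and 28.9 CPM in clone 30 and at 81.0, 79.0 and 5.41 CPM in clone 31, late changes of -1.73 and -3.88 that both passed. Its relative Pou3f2 instead rose in clone 31 (0.86), and its 0.28 in clone 30 did not pass. Hmga2, a chromatin protein of proliferating progenitors, was at 53.4, 64.8 and 37.4 CPM in clone 30 and at 92.9, 83.5 and 16.7 CPM in clone 31, an interaction of -1.74 ± 0.21 (SE; adjusted p = 0.157 by edgeR, 3.84e-07 by DESeq2). Upward, Tec, a tyrosine kinase, was at 5.62, 4.45 and 13.8 CPM in clone 30 and at 1.6, 1.98 and 21.9 CPM in clone 31. Pik3ip1, an inhibitor of PI3 kinase, was at 52.4, 47.2 and 90.2 CPM in clone 30 and at 26.6, 26.2 and 110.0 CPM in clone 31. Sox4, a factor of differentiating neural cells, was at 367, 350.1 and 667 CPM in clone 30 and at 266, 322 and 1089 CPM in clone 31.

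Notch pathway genes include the RBPJ targets at which SPEN is a corepressor. Of 21 tested, 17 rose in clone 31 (15.7% of all genes did) and 5 in clone 30 (4% of all genes did), and 0 fell in either. The median late change was 0.39 in clone 30 and 0.81 in clone 31, and 19 of 21 interactions were above 0. At unadjusted interaction p under 0.01 there were 2 (9.52%, against 3.57% of all genes), Dll1 and Hes6. Dll1, a Notch ligand, rose in both clones, from 105 and 76.0 to 201 CPM in clone 30 and from 41.6 and 49.1 to 217 CPM in clone 31. Hes6, a HES family member that promotes differentiation, rose in clone 31 only, at 118, 94.9 and 99.4 CPM in clone 30 and at 98.9, 87.2 and 159.8 CPM in clone 31. Hes5, the classical target, was at 7.99, 4.80 and 32.4 CPM in clone 30 and at 0.776, 2.81 and 44.1 CPM in clone 31. Its interaction of 2.24 ± 0.87 (SE) had an adjusted p of 0.378 by edgeR and 0.652 by DESeq2.

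Of 15 astrocyte genes tested, 13 rose in clone 31 (15.7% of all genes did) and 3 in clone 30 (4% of all genes did). There were 14 interactions above 0 and 4 at unadjusted p under 0.01 (26.7%, against 3.57% of all genes). The median late change was 0.54 in clone 30 and 1.27 in clone 31. S100b rose in both clones, from 63.8 and 62.9 to 96.6 CPM and from 53.5 and 53.9 to 129.7 CPM. Clu (clusterin) was at 60.0, 44.2 and 55.7 CPM in clone 30 and at 14.1, 13.2 and 34.4 CPM in clone 31. Slc1a2, the glial glutamate transporter, was at 138, 92.6 and 167 CPM in clone 30 and at 32.8, 29.9 and 112 CPM in clone 31. In Clu and Slc1a2 clone 31 began lower and its late change brought it nearer to clone 30. Gfap, a defining marker of mature astrocytes, was at or below 2.70 CPM in every library. It was at 0.722, 0.700 and 2.70 CPM in clone 30 and at 0.275, 0.262 and 0.940 CPM in clone 31. Aqp4, another defining astrocyte marker, was at 7.30, 3.12 and 17.2 CPM in clone 30 and at 0.826, 1.22 and 20.8 CPM in clone 31. For both genes the 48 h library was the highest of its clone. The summed level of all 16 astrocyte markers in the files ran from 2611 to 3305 CPM over the 4 untreated and 24 h libraries and was 4137 CPM (clone 30) and 5054 CPM (clone 31) at 48 h.

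Of 20 progenitor identity genes, 6 rose and 0 fell in clone 30, and 12 rose and 3 fell in clone 31, with a median interaction of 0.29. Of all genes, 4% rose in clone 30 and 15.7% rose and 15.8% fell in clone 31. Nes, an intermediate filament of progenitors, was at 1289, 1895 and 1131 CPM in clone 30 and at 1276, 1493 and 647 CPM in clone 31, where it fell. Fgfr2, an FGF receptor, rose from 39.3 and 34.7 to 75.9 CPM in clone 30 and from 24.6 and 26.7 to 110.0 CPM in clone 31. The summed progenitor level was 10793 CPM in clone 30 and 10315 CPM in clone 31 at 48 h. In the neuron list 0 of 17 were called in clone 30 (8.42% of all genes were). In clone 31, 4 rose and 1 fell (15.7% and 15.8% of all genes did). The median interaction of the neuron list was 0.30, with 12 of 17 above 0. An unadjusted interaction p under 0.01 was reached by 2 (11.8%, against 3.57% of all genes), Mapt and Ncam1, both above 0. The summed level of the neuron markers was 2093 CPM in clone 30 and 2234 CPM in clone 31 at 48 h. Those of the endoderm markers (36.3 and 23.0 CPM) and of the microglia and endothelium markers (11.3 and 4.93 CPM) were low. The pluripotency markers summed to 16.4 CPM in clone 30 and 31.9 CPM in clone 31 at 48 h, of which Klf4 held 9.78 and 26.3 CPM. Nanog held 2.51 and 3.65 CPM, and Esrrb, which was lowest at 48 h in both clones, held 2.96 and 1.20 CPM. In the untreated and 24 h libraries the pluripotency sum ran from 14.7 to 17.2 CPM. In bulk RNA fewer cells of a type and less RNA per cell cannot be told apart, and the part of cell makeup in the interaction was not tested.

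**Figure D5:**
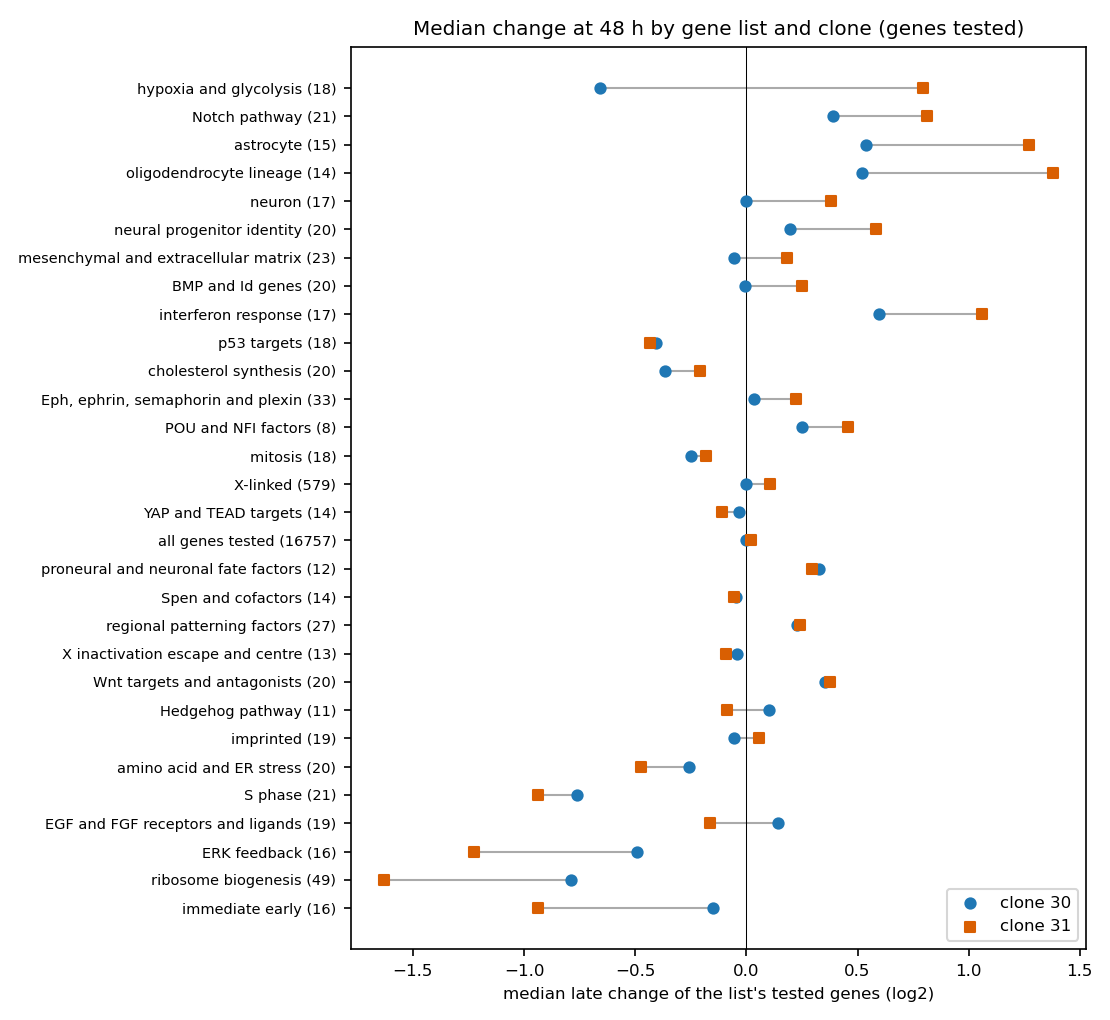
Median late change (log2) of the tested genes of each plotted list in clone 30 (circles) and clone 31 (squares), ordered by median interaction, with the number of genes in brackets. The endoderm list, the pluripotency list and the microglia and endothelium list are left out of the plot. The hypoxia and glycolysis medians lie on opposite sides of 0 (-0.66 and 0.79), ERK feedback, immediate early and ribosome biogenesis lie farther below 0 in clone 31, and mitosis, p53 and SPEN cofactor medians nearly coincide.

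S phase genes fell in both clones, 20 of 21 in clone 30 (4.42% of all genes did) and 21 of 21 in clone 31 (15.8% of all genes did), with medians of -0.76 and -0.94. Their interactions were below 0 in 18 of 21, and 0 had an unadjusted p under 0.01, against 3.57% of all genes. Of 18 mitosis genes, 0 were called in clone 30 (8.42% of all genes were) and 1 fell in clone 31 (15.8% did). Their median late changes were -0.25 and -0.18. Interferon genes had medians of 0.59 and 1.06, with 12 of 17 interactions above 0. Of the 17, 2 rose in clone 30 (4% of all genes did) and 5 in clone 31 (15.7% of all genes did). The 14 tested genes of SPEN and its cofactors had a median interaction of -0.01. Xist was at 705, 1029 and 1327 CPM in clone 30 and at 863, 1176 and 1818 CPM in clone 31. Its interaction of 0.22 ± 0.39 (SE) was not called (edgeR adjusted p = 0.838). Among 579 X-linked genes tested, 13 (2.25%) reached an unadjusted interaction p under 0.01, 8 above 0 and 5 below, against 3.57% of all genes, and their median interaction was 0.07.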

How the data were processed

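Raw counts of read pairs per gene were deposited for 6 libraries. The authors made them with featureCounts 1.6.1, reverse-stranded (setting 2), on Ensembl release 92 of mm10 (GRCm38), per the file headers, whose alignment paths name STAR, merging and removal of duplicates. R 3.4.2 and DESeq2 are listed too, per the submitters' processing notes. Of 53801 genes, 53620 matched a symbol. The fit had 4 coefficients (the level of each clone and its late change), fitted in R 4.3.3 by edgeR 4.0.16 (TMM, filterByExpr, robust quasi-likelihood F test, 2-sided) and a Benjamini-Hochberg threshold of 0.05; standard errors were taken as the size of the log2 change over the root of F. DESeq2 1.42.0 and limma 3.58.1 voom were alternatives. Libraries of one number come from one subclone, per the titles, and their deviations from the group means correlated at 0.77, 0.55 and 0.67, so clone pairs them.

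With under 10 interaction calls, genes were named at an unadjusted p under 0.01: per class the 5 largest interactions of at least 5 CPM. Their interaction had to have the same sign against the untreated libraries alone and against the 24 h libraries alone. From each list, at most 4 members were named in order of p. The members and the 30 lists were chosen with earlier results of these data known. The ribosome biogenesis list was chosen after its values were seen, as were Gm3764 and the other miR-9 hosts, Vegfa, Bnip3, Pdk1, Pfkfb3, Adm, Il17rd, Etv1, Gnl3, Rrs1, Urb1, Npm1, Polr1c, Hmga2, Tec, Pik3ip1, Hes5 and Gfap. The tests were also run on simulated counts whose spread was fitted to these libraries. That cannot show how they behave when the 48 h library of a clone deviates, and no conclusion is drawn from it.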

Additional observations from a re-analysis of the deposited data

Results flagged for a closer look

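In 5 genes the clones moved in opposite directions at 48 h, each call within its own clone, and DESeq2's test of the difference itself passed its threshold. The DESeq2 adjusted p of the interaction was 3.83549e-07 for Ak4, 2.8785e-06 for P4ha1, 2.81635e-06 for Vldlr, 1.14378e-06 for Col18a1 and 3.83549e-07 for Gm3764. By edgeR the adjusted p of the same differences ran from 0.157 to 0.236, so the edgeR test does not call them. Each rests on 1 library per clone at 48 h.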

How the results depend on the processing

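Each interaction needs both 48 h libraries, so it could not be estimated without either of them. Counts of called genes depended on the processing. Genes called for the interaction numbered 0 under DESeq2-type, upper-quartile and total-count scaling, filtering by treatment group or at 1 CPM in 2 libraries, voom, and removal of GC and length trends (added after the data were seen). DESeq2 gave 228 (12 clone 30 only, 124 clone 31 only, 8 opposite). No filter beyond 1 count gave 531 (49, 257 and 16), with 2910 late calls in clone 30 and 1354 genes at unadjusted p under 0.01. A shared 24 h term gave 845 (58, 387 and 45), with 4359 and 1679.

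Leaving out 1 of the 4 baseline libraries gave 0 to 1378 interaction calls. Without the untreated library of clone 30 there were 266 and without the 24 h library of clone 30 there were 1378, against 0 without the untreated or the 24 h library of clone 31. Across these the count of clone 30 only genes ran from 0 to 66, clone 31 only from 0 to 864, opposite from 0 to 61, and genes at p under 0.01 from 317 (without untreated clone 31) to 2005 (without 24 h clone 30), with 340 without 24 h clone 31 and 972 without untreated clone 30. Late calls in clone 30 ran from 778 (without untreated clone 31; 783 without 24 h clone 31) to 3630 (without untreated clone 30), and in clone 31 from 2764 (without 24 h clone 31; 2966 without untreated clone 31) to 7043. Each such fit has 1 residual degree of freedom.

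The interaction itself is a contrast of the pairing by clone and has no unpaired form. For the mean late change of both clones, the fit without the clone as a block called 1947 genes against 6271 with the pairing (37.4%). Of 114 named genes, 112 kept the sign of their interaction in all 16 alternatives. The other two were Spen, at -0.0295 with total counts, -0.34 without untreated clone 31 and -0.48 without 24 h clone 30 (up to 0.58 without 24 h clone 31), and Xist, at -0.0765 without 24 h clone 30. The cause was not tested. Nearly all of the 114 were picked by their interaction or after their values were seen. Class genes also had to keep its sign against each baseline alone. The kept signs were thus largely fixed by the choice of genes and are no measure of stability. The median interaction of the hypoxia and glycolysis list ran from 1.22 to 1.92, of ERK feedback from -1.10 to -0.57, of ribosome biogenesis from -0.99 to -0.65, of astrocyte genes from 0.47 to 0.71 and of Notch genes from 0.41 to 0.78.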

Other observations

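Wnt targets and antagonists had median late changes of 0.35 in clone 30 and 0.37 in clone 31, and 0 of 20 reached an unadjusted interaction p under 0.01 (3.57% of all genes did). The Hedgehog pathway (11 genes, median interaction -0.13) and the BMP and Id genes (20 genes, 0.21) also had 0. Ptch1, a Hedgehog target, rose in both clones by 1.25 and 2.08, and Id4, an inhibitor of differentiation, rose in both by 2.4 and 4.18. The p53 targets had medians of -0.41 and -0.43, with members on both sides: the interaction was 1.35 for Btg2 and -1.34 for Plk2, a polo-like kinase. Of 20 cholesterol synthesis genes, 17 had an interaction above 0 (median 0.17), with Stard4, a sterol carrier, at -0.34 in clone 30 and 0.19 in clone 31. The medians of the imprinted list (-0.15), of regional patterning factors (-0.07), of the X inactivation escape and centre list (-0.07), of YAP and TEAD targets (0.03) and of proneural factors (0.00) lay within 0.2 of 0, over members of both signs.

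Among receptors and ligands, the EGF and FGF list had 13 of 19 interactions below 0 (median -0.31). Areg, the EGF receptor ligand amphiregulin, fell in clone 31 only and was at 1.85, 2.87 and 1.99 CPM in clone 30 and at 1.95, 2.53 and 0.414 CPM in clone 31. Of 33 genes of the Eph, ephrin, semaphorin and plexin list, 24 had an interaction above 0. An unadjusted p under 0.01 was reached by 3 (9.09%, against 3.57% of all genes), all above 0: Nrp2, Efnb1 and Epha4. The guidance receptor Epha4 was at 38.2, 37.5 and 45.4 CPM in clone 30 and at 23.0, 17.5 and 44.7 CPM in clone 31. The oligodendrocyte list had medians of 0.52 and 1.38. Its member Cnp, a myelin enzyme, was at 128, 72.2 and 238 CPM in clone 30 and at 82.3, 84.9 and 458 CPM in clone 31, with an interaction of 1.20 ± 0.45 (SE, edgeR adjusted p = 0.362). Pdgfra, the marker of oligodendrocyte precursors, rose in both clones, from 0.562 and 0.375 to 2.64 CPM and from 0.951 and 1.22 to 4.51 CPM. Of the 23 mesenchymal and matrix genes, 0 reached an unadjusted interaction p under 0.01 (3.57% of all genes did). Loxl2, a lysyl oxidase, was at 24.5, 9.40 and 15.2 CPM in clone 30 and at 15.3, 9.76 and 112 CPM in clone 31, and its interaction of 3.29 ± 0.84 (SE) had an edgeR adjusted p of 0.286. The homeobox gene En1 was at 4.45, 6.07 and 4.70 CPM in clone 30 and at 3.43, 3.53 and 0.940 CPM in clone 31, a fall of 1.88 in clone 31 only.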
